A study of Mus musculus with 6 samples.

Results

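The WNT pathway was described in the embryonic mouse ovary through 60 genes picked by name for their part in it: secreted ligands, the proteins that process them, receptors, R-spondins with the receptor-turnover machinery, secreted antagonists, the cytoplasmic relay and destruction complex, and nuclear effectors. They made up 60 of the 35974 gene names in the count table and 269 of its 114412 transcripts, and the value of a gene was the sum of the counts of its transcripts. All 60 passed the filter on low counts, which 19435 genes passed. Polyadenylated RNA was sequenced from E15.5 ovaries of C57Bl6j embryos, 3 pools per group. The mothers of the PB group received panobinostat (PB), an inhibitor of histone deacetylases, at 5 mg/kg from E6.5 to E15.5. Control mothers received its vehicle, water with DMSO. The labels give a daily dose and the methods a dose on alternate days, and a pool is variously given as 4 ovaries, 6 to 8 ovaries or at least 8. The labels name no altered allele in either group, and nothing ties a pool to a litter, so p-values measure the spread between pools only. The pools held between 97165644 and 125985399 counts. The members were chosen with earlier results of these data known. They include Cxxc4, Dixdc1, Sox17, Axin2, Hic1, Lgr4, Rnf146 and Wnt2, WNT genes that the study listed as downregulated in these samples. Shares of members printed beside shares of all genes are therefore not independent of these data.

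WNT ligands are secreted lipid-modified proteins that bind Frizzled receptors and the co-receptors LRP5 and LRP6. In the canonical branch, Dishevelled proteins then inactivate the destruction complex, built on AXIN and APC with GSK3 kinases, and β-catenin escapes degradation and activates genes together with TCF and LEF factors. In the XX gonad, WNT4 and the R-spondin RSPO1 are known to act through β-catenin in somatic cells to keep the ovarian fate and to block the testis pathway, and they also act on germ cells. Whole ovaries were used, so for every gene below, fewer cells of a type and less RNA per cell cannot be told apart.

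Levels per transcript length (TPM, computed from the counts and the exon lengths) ran over several orders of magnitude among the members. Ctnnb1, which encodes β-catenin, stood first with 405 ± 35 TPM in control and 431 ± 19 TPM in PB pools (SD, n = 3). The ligand Wnt6 followed with 189 ± 16 and 190 ± 21 TPM. Wnt4, the ligand of ovarian fate, came next with 87.5 ± 4.7 and 89.3 ± 4.8 TPM. The ranges of the 6 pools did not overlap between Ctnnb1 and Wnt6 or between Wnt6 and Wnt4. Below them Sfrp1 (83.4 TPM as the mean of all pools), the R-spondin receptor gene Lgr4 (78.2), the ligand carrier gene Wls (77.2), the kinase gene Gsk3a (72.1) and Rspo1 (64.9) formed a run in which each gene's range overlapped that of its neighbour. From rank to rank this held throughout the rest of the order, with gaps only below Fzd8 and below Cxxc4. Altogether 34 members stood at 10 TPM or above and 8 below 1 TPM. The levels include transcripts assembled from these data. Without them Tcf7 fell from 20.2 to 1.85 TPM, Tcf7l2 from 12.6 to 9.34 and Fzd8 from 11.7 to 9.53. Wnt2b fell from 52.8 to 22.6 TPM.

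Each role had its own leading gene on the per-length scale. Among the receptors Fzd2 was highest, with 35.2 ± 4.4 TPM in control and 33.8 ± 0.43 in PB pools, and Fzd10 lowest by the mean of all pools, with 4.23 ± 0.96 and 3.66 ± 0.57, although Fzd6 had a slightly lower mean in control (4.22). Sfrp1, whose product binds and sequesters ligands, led the secreted antagonists. Dkk1, whose product blocks LRP co-receptors, was the lowest of them by the mean of all pools, with 0.393 ± 0.071 and 0.431 ± 0.15 TPM, although Sfrp4 was lower under PB (0.388 ± 0.075). The ligands spanned the widest range, from Wnt6 down to Wnt9b with 0.113 ± 0.12 and 0.0626 ± 0.019 TPM. The 8 members under 1 TPM were Wnt2, Wnt3, Wnt7b, Wnt9b, Rspo2, Dkk1, Sfrp4 and Wif1. Their control pools varied with a median coefficient of variation of 58.1%, against 3.94% for the 34 members at 10 TPM or above. The standard errors of their log2 fold changes ran from 0.18 (Rspo2) to 0.78 (Wnt9b), against 0.039 to 0.24 in the 34, so the ranges met at Rspo2.

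**Figure D1:**
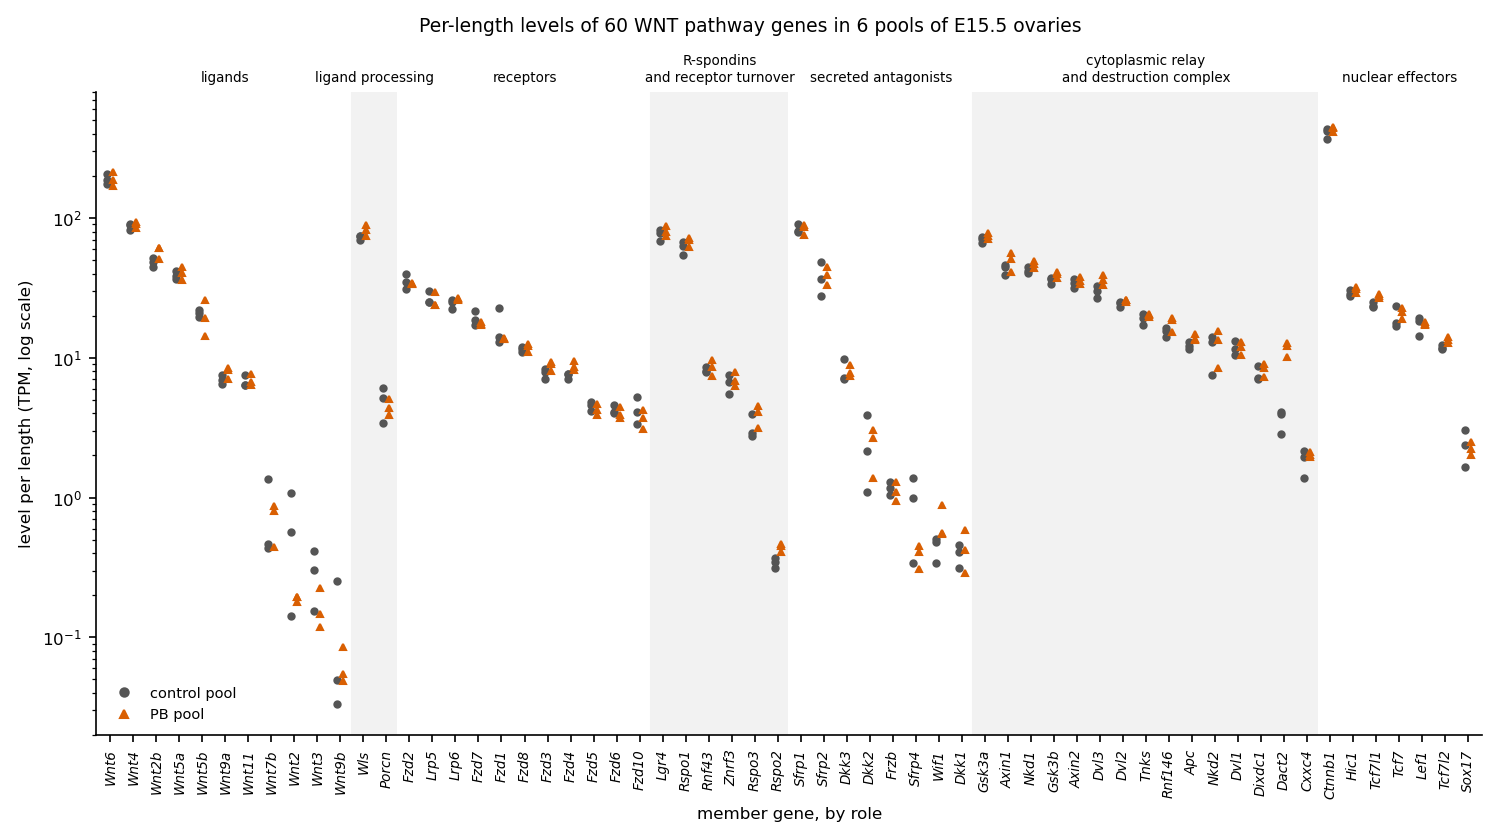
Level per transcript length (TPM, log axis) of each of the 60 members, ordered by role and, within a role, by mean level. Circles are the 3 control pools and triangles the 3 PB pools. Ctnnb1 lies highest and Wnt9b lowest, and in the plot Dact2 is the member whose groups stand clearly apart.

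The question put to the counts was whether PB exposure altered the abundance of pathway transcripts. By gene sums, no member passed a fold change of at least 2 with an FDR of at most 0.05 in edgeR's quasi-likelihood test with Benjamini-Hochberg adjustment over all genes. In all genes tested, 0.0154% passed (3 of 19435). At an unadjusted p under 0.05 there were 5 members, 2 higher and 3 lower in PB, or 8.33% beside 4.46% of all genes. DESeq2 called 1 member, Dact2, beside 0.0539% of all genes with an adjusted p. The 3 control and 3 PB pools did not overlap for 5 members (8.33%), beside 10.7% of all genes. The median log2 fold change was -0.03, beside 0.0020 over all genes, and 39 of 60 values were negative (65.0% beside 49.3%). For 43 of the 60 members the 95% interval of the fold change stayed within 1.5-fold in both directions, and for 52 within 2-fold. The median coefficient of variation among the control pools was 6.40%.

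**Figure D2:**
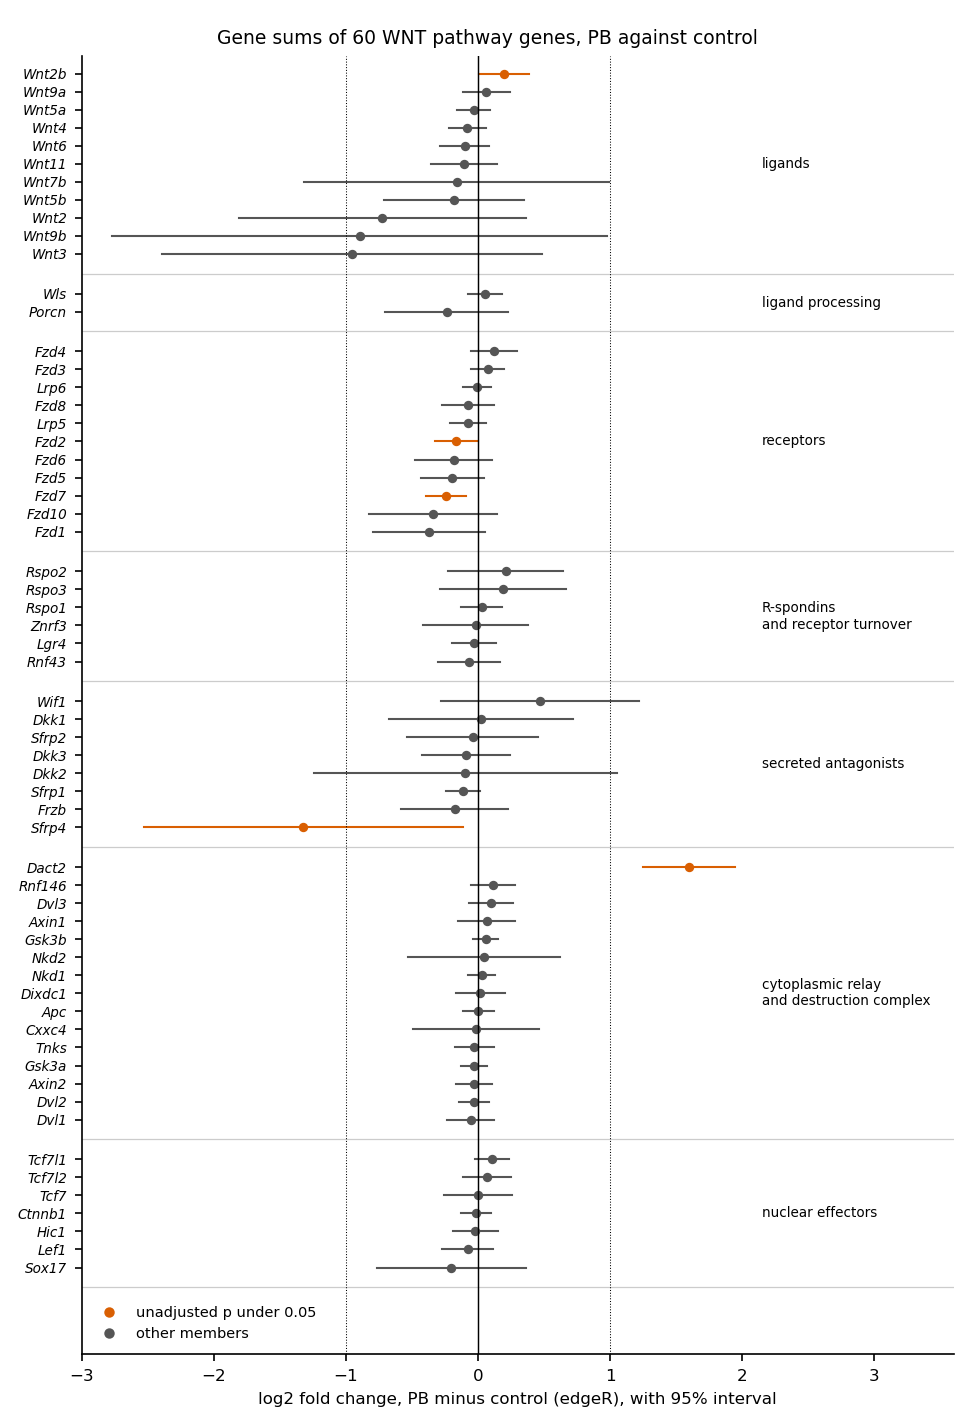
Log2 fold change of the gene sum, PB minus control, with its 95% interval from edgeR for each of the 60 members by role, in orange where the unadjusted p was under 0.05. The dotted lines mark a 2-fold difference in either direction. Dact2 lies at 1.60 with its whole interval right of the upper line, most abundant members lie near 0, and the long intervals belong mainly to genes of low level such as Wnt9b and Wnt3.

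Dact2 had the strongest difference of all members. It encodes a Dapper protein, a scaffold known to bind Dishevelled and to modulate WNT and TGF-β signalling. Its normalised read count (CPM, the count scaled to library size with TMM factors) was 7.61, 5.82 and 7.18 in the control pools against 20.8, 23.7 and 17.7 under PB. The lowest PB pool was above the highest control pool, and the spread within each group was small beside the distance between them. The log2 fold change was 1.60 (SE 0.15), a 3.02-fold ratio with a 95% interval from 2.37 to 3.85. Its p was 1.85e-05, the 6th smallest of all 19435 genes, yet the FDR in edgeR's quasi-likelihood test was 0.0601 and missed the threshold. At an FDR of at most 0.1 it was the 1 member called, beside 0.0206% of all genes. DESeq2 gave an adjusted p of 9.45e-21 with a log2 fold change of 1.59. Leaving out any 1 pool gave log2 fold changes between 1.49 and 1.70 and edgeR FDRs between 0.0355 and 0.330, passing the threshold only without PB replicate 2. Per length the gene stood at 3.62 ± 0.67 TPM in control and 11.6 ± 1.3 TPM in PB pools.

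The paralogous scaffold genes lay near 0 in the same fit. Dact1 had 32.8 ± 5.6 CPM in control and 31.1 ± 1.9 in PB pools (log2 fold change -0.08, SE 0.13). Dact3 had 44.9 ± 0.60 and 44.5 ± 2.4 CPM, with a log2 fold change of -0.01 (SE 0.06). Neither reached an unadjusted p under 0.05. The nearest genes tested on either side of Dact2 were read as well. Mllt4, 289 kb towards lower coordinates, had a log2 fold change of 0.07 (SE 0.07). Towards higher coordinates, Gm34567 at 45.4 kb had -0.47 (SE 0.51) and Smoc2 at 75.2 kb had -0.0014 (SE 0.40). None of these 3 neighbours reached an unadjusted p under 0.05, though the last 2 were measured imprecisely.

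Dact2 lies on the minus strand at chr17:14195230-14204337 (mm10) and was counted as 2 transcripts that share 3 of their 4 exons and differ in the first. The first exon of NM_172826.3 lies at chr17:14203514-14203831, and that of XM_006524227.3 at chr17:14204176-14204337, so their starts are 506 bases apart. Raw counts of NM_172826.3 were 574, 678 and 566 in the control pools against 1943, 2253 and 2063 under PB. Raw counts of XM_006524227.3 were 174, 0 and 110 in control and 123, 170 and 0 in PB pools. The difference between groups thus sat in the transcript with the downstream start, with a log2 fold change of 1.75 (SE 0.14) and an FDR of 0.0645 in edgeR's quasi-likelihood test of transcripts. For XM_006524227.3 the pools of both groups overlapped (log2 fold change -0.02, SE 2.39). DESeq2 gave NM_172826.3 an adjusted p of 3.54e-35.

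The sequence around the start of NM_172826.3 is shown because the estimated counts place the PB difference in the transcript that begins there. It is the RefSeq promoter window (GRCm38.p6, chr17:14203782-14204081, minus strand, 5′ to 3′), and the capitals mark the GC box GGGCGG on either strand.
Dact2 promoter: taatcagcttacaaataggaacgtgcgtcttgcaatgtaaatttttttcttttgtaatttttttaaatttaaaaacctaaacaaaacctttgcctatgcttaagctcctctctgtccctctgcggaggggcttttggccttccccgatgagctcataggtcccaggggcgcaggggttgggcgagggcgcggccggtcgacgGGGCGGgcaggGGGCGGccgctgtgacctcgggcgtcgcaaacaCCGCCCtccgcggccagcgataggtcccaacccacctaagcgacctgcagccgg
The window holds 3 GC boxes and 23 CpG dinucleotides. A TCF/LEF motif, searched as CTTTG followed by AA, AT, TA or TT on both strands, was not among its letters. Promoter windows were at hand for 41 of the 60 members, 54 windows in all, and 8 of them held a TCF/LEF motif (14.8%, beside 16.9% of all 32851 windows). The GC box was in 37 of the 54 (68.5%, beside 35.7%), and the median number of CpG was 23.5, beside 7 in all windows. These are matches of letters and not measured binding sites. All 60 members passed the filter on low counts, while the 32851 windows were not filtered on expression, so the shares compare unlike sets.

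**Figure D3:**
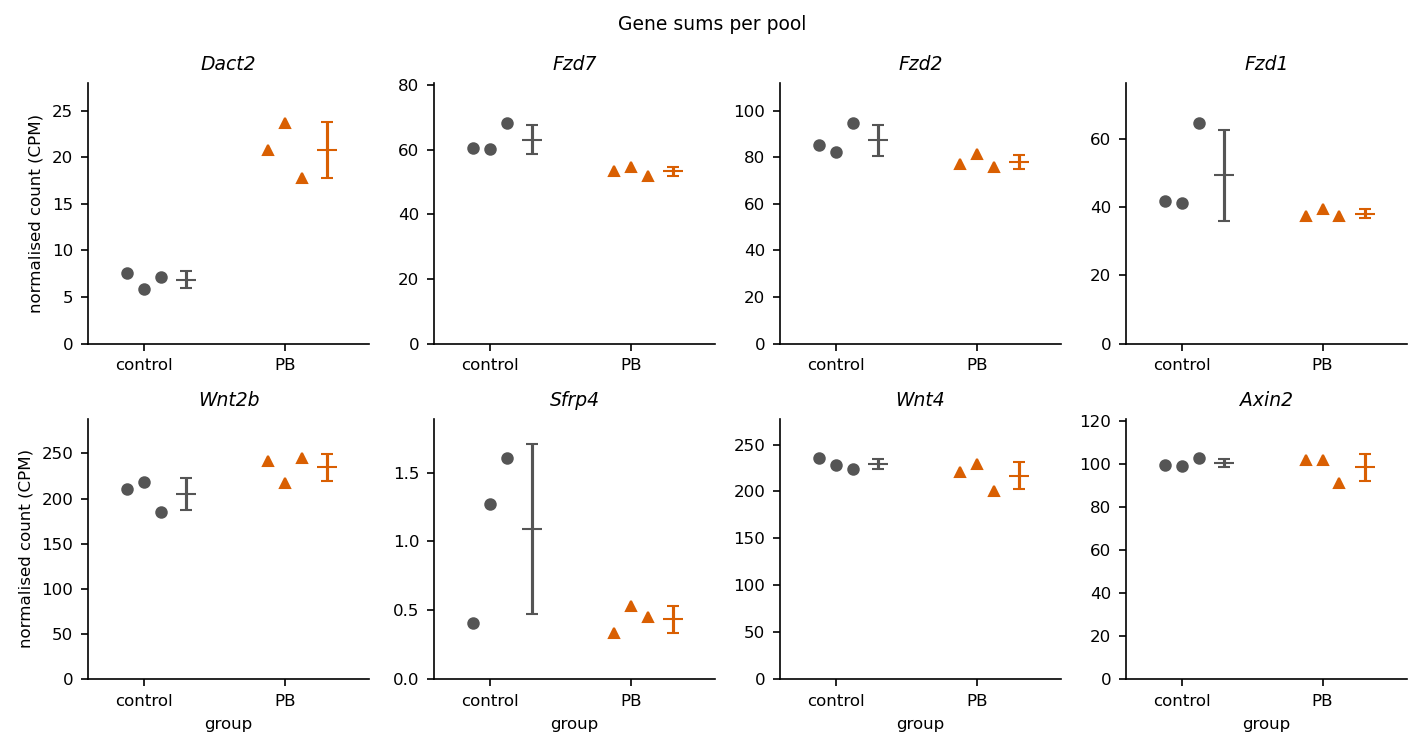
Normalised read count (CPM) of 8 members in each pool, with circles for control and triangles for PB pools and the mean ± SD beside them; every axis starts at 0. PB pools lie above control pools for Dact2 and below them for Fzd7, Fzd2 and Fzd1, and the groups overlap for Wnt2b, Sfrp4, Wnt4 and Axin2.

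The 11 ligands had 9 values below 0 and 2 above, with a median log2 fold change of -0.11, and none separated the groups. Wnt4 had 235, 228 and 224 CPM in the control pools against 221, 229 and 201 CPM under PB. The groups overlapped, at a log2 fold change of -0.08 (SE 0.06), 95% interval -0.22 to 0.06. Wnt6, an epithelial ligand in many organs, was at 289, 262 and 252 CPM in control and 272, 235 and 241 CPM under PB (log2 fold change -0.10, SE 0.08). Wnt5a, the main ligand of the β-catenin-independent branch, gave -0.03 (SE 0.05). For all 3 ligands the 95% interval of the fold change stayed within 1.25-fold.

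Wnt2b was the ligand with the smallest p. Its counts were 211, 218 and 185 CPM in control and 241, 218 and 245 CPM in PB pools, with control 2 as high as PB 2. The log2 fold change of 0.20 (SE 0.08, unadjusted p 0.0412) had an FDR of 0.888 in edgeR's quasi-likelihood test. The gene (chr3:104939633-104961709) was counted as the RefSeq transcript NM_009520.3 and an assembled transcript of 6 exons, MSTRG.11875.1, which took between 67.8% and 78.0% of the counts. The assembled transcript had 161, 145 and 137 CPM in control and 184, 163 and 186 CPM in PB pools, with no overlap, a log2 fold change of 0.27 (SE 0.09) and an FDR of 1. Counted from the RefSeq transcript alone, the log2 fold change of Wnt2b was -0.0072.

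The scarce ligands could not be bounded as closely. Wnt2 had 0.458, 0.978 and 1.71 CPM in control and 0.605, 0.695 and 0.602 CPM under PB (log2 fold change -0.72, SE 0.45). Wnt9b had 0.102, 0.163 and 0.754 CPM in control and 0.151, 0.254 and 0.138 CPM in PB pools. Its log2 fold change was -0.90 (SE 0.78), and it became 0.43 when control 3, the highest pool, was left out. Wnt3 and Wnt7b were also highest in control 3. Of the 2 genes that process ligands, Wls, the carrier of ligands to the cell surface, had 106, 108 and 102 CPM in control and 116, 105 and 108 CPM in PB pools. Porcn, the acyltransferase that attaches the lipid, had 7.76, 4.70 and 6.32 CPM in control and 5.91, 4.84 and 5.17 CPM in PB pools. Their log2 fold changes were 0.05 (SE 0.05) and -0.24 (SE 0.19).

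Among the 11 receptors and co-receptors, 9 values were below 0 and the median log2 fold change was -0.16. For 3 of them, Fzd1, Fzd2 and Fzd7, every PB pool lay below every control pool, or 27.3% of the receptors. No other role held such a gene. Over all 60 members the count with PB lower was thus also 3, beside 5.61% of all genes. Fzd7, a Frizzled of early embryonic tissues, had 60.6, 60.4 and 68.4 CPM in control and 53.5, 54.6 and 52.0 CPM in PB pools. The step was small but the PB pools were tightly grouped, and the log2 fold change was -0.24 (SE 0.06, unadjusted p 0.00754). Fzd2 had 85.1, 82.2 and 94.8 CPM in control and 77.0, 81.3 and 75.7 CPM under PB (log2 fold change -0.16, SE 0.07, unadjusted p 0.0474). Fzd1 had 41.9, 41.2 and 64.7 CPM in control and 37.3, 39.5 and 37.3 CPM in PB pools, with -0.37 (SE 0.18). In all 3 genes control 3 was the highest pool. All 3 had an FDR of 0.888 in edgeR's quasi-likelihood test, and their 95% intervals lay within 2-fold.

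The other receptors gave no separation. Fzd10 had 8.25, 7.29 and 11.1 CPM in control and 6.81, 8.45 and 5.74 CPM under PB (log2 fold change -0.34, SE 0.20). The co-receptor gene Lrp6 gave -0.01 (SE 0.04), and Lrp5 gave -0.08 (SE 0.06). Fzd3 and Fzd4 were the 2 receptors with values above 0, at 0.07 (SE 0.05) and 0.12 (SE 0.07).

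R-spondins raise WNT responses by binding LGR receptors and removing the ubiquitin ligases ZNRF3 and RNF43, which clear Frizzled from the cell surface. Rspo1, the R-spondin of ovarian fate, had 83.6, 72.8 and 76.2 CPM in control and 79.4, 76.0 and 81.9 CPM in PB pools. The groups overlapped, with a log2 fold change of 0.03 (SE 0.07) and a 95% interval from -0.13 to 0.18. Lgr4 had 279, 253 and 258 CPM in control and 272, 266 and 236 CPM in PB pools, with -0.03 (SE 0.07). Rspo2 had 0.957, 1.07 and 0.839 CPM in control and 1.08, 1.20 and 1.04 CPM in PB pools, with 0.21 (SE 0.18). Rspo3 had 4.45, 5.09 and 6.22 CPM in control and 4.63, 7.20 and 6.12 CPM in PB pools, with 0.19 (SE 0.20). No gene of this role reached an unadjusted p under 0.05, and Znrf3 and Rnf43 gave -0.02 (SE 0.17) and -0.07 (SE 0.10).

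Of the 8 secreted antagonists, Sfrp4 had the smallest p. Sfrp4 encodes a Frizzled-related protein that binds ligands, and its counts were 0.407, 1.27 and 1.60 CPM in control and 0.333, 0.528 and 0.447 CPM in PB pools. Control 1 lay inside the PB range, so the groups overlapped. The log2 fold change of -1.32 (SE 0.50, unadjusted p 0.0360) had an FDR of 0.888 in edgeR's quasi-likelihood test, and its 95% interval ran from -2.53 to -0.12. Sfrp1, by far the most abundant antagonist, had 238, 252 and 258 CPM in control and 239, 217 and 236 CPM in PB pools, with -0.11 (SE 0.05). Dkk1 had 0.621, 0.515 and 0.669 CPM in control and 0.807, 0.431 and 0.594 CPM in PB pools, with 0.02 (SE 0.29). Dkk2 varied most among the remaining antagonists, with 2.81, 5.79 and 9.44 CPM in control and 3.21, 7.48 and 6.18 CPM in PB pools. Both groups thus held a low pool, control 1 and PB 1.

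In the cytoplasmic relay and destruction complex, 13 of 15 members had a 95% interval within 1.5-fold. Axin2, which encodes a scaffold of the complex and is itself induced by β-catenin in many tissues, had 99.9, 99.3 and 103 CPM in control and 102, 102 and 91.5 CPM in PB pools. The log2 fold change was -0.03 (SE 0.06), with a 95% interval from -0.17 to 0.11. Gsk3a had 99.3, 101 and 98.6 CPM in control and 99.5, 97.1 and 96.0 CPM in PB pools, with -0.03 (SE 0.04). Rnf146, whose product ubiquitinates AXIN after its modification by tankyrase, had 45.6, 44.0 and 46.3 CPM in control and 51.4, 44.4 and 50.9 CPM in PB pools, with 0.11 (SE 0.07). The remaining scaffolds and regulators were as close to 0. Dixdc1, which encodes a partner of Dishevelled and AXIN, had 30.5, 30.2 and 32.9 CPM in control and 29.2, 34.6 and 31.1 CPM in PB pools, with 0.02 (SE 0.08). Cxxc4, an inhibitor that binds Dishevelled, had 10.1, 6.01 and 8.11 CPM in control and 7.33, 9.11 and 7.50 CPM in PB pools, with -0.02 (SE 0.20). Dvl3, a Dishevelled gene, had 75.4, 73.4 and 79.3 CPM in control and 77.9, 89.1 and 77.7 CPM in PB pools, with 0.10 (SE 0.07). The relay genes other than Dact2 lay between -0.06 and 0.11.

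Of the nuclear effectors, Sox17 had the value farthest from 0. Ctnnb1 had 1013, 957 and 1020.0 CPM in control and 994, 983 and 985 CPM under PB (log2 fold change -0.01, SE 0.05). Lef1 had 43.8, 37.2 and 44.6 CPM in control and 39.9, 40.8 and 38.1 CPM in PB pools, with -0.08 (SE 0.08). Both encode partners in the transcription complex, and both pairs of groups overlapped. Tcf7l1, the TCF that mostly represses targets, had 44.5, 48.4 and 46.9 CPM in control and 48.4, 50.8 and 51.1 CPM in PB pools, with 0.10 (SE 0.05). Its PB pools lay above its control pools by a margin too small to show in these rounded values. Sox17, an endothelial and endodermal factor that restrains β-catenin activity, had 3.82, 6.51 and 7.38 CPM in control and 4.92, 5.38 and 5.10 CPM in PB pools, with -0.20 (SE 0.24). Hic1, a repressor known to sequester TCF factors, had 79.6, 81.8 and 81.9 CPM in control and 73.7, 87.6 and 78.7 CPM in PB pools, with -0.02 (SE 0.07).

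Genes known as targets of the canonical branch were read from the same fit. Of 16 targets, of which 6 are also members, none was called, beside 0.0154% of all genes. None reached an unadjusted p under 0.05, beside 4.46%. Of the 16 values, 14 were below 0, beside 49.3% of all genes. Their median log2 fold change was -0.05, beside 0.0020 over all genes. The target Lgr5 was at 0.05 (SE 0.09), Sp5 at -0.12 (SE 0.12) and Notum, an enzyme that inactivates ligands, at -0.36 (SE 0.25). Fst, a target of WNT4 in the fetal ovary, was at -0.02 (SE 0.07). For 14 of the 16 the 95% interval stayed within 1.5-fold.

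Of 66 further pathway genes, 65 were in the table and 61 were tested, and none was called. Their median log2 fold change was -0.00044, with 30 values above and 31 below 0. At an unadjusted p under 0.05 there were 2 (3.28% beside 4.46%). Ror2, a receptor of WNT5A, had 32.3 ± 0.66 CPM in control and 28.6 ± 1.1 in PB pools, with -0.18 (SE 0.05, unadjusted p 0.0145). Amer1, which anchors the destruction complex, had means of 77.5 CPM in control and 84.7 CPM in PB pools, with 0.13 (SE 0.05, unadjusted p 0.0319).

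Counts of single transcripts, which are estimates where transcripts share reads, varied far more between pools than gene sums. The typical deviation between pools, as edgeR's common biological coefficient of variation, was 20.9% for genes and 98.4% for transcripts over the whole table. Of 47 members with several transcripts, the most abundant one was the same in all 6 pools for 24 (51.1%, beside 57.8% of all tested genes). Between 2 pools of the same group it differed for 24.5% of these members on average, and between a control and a PB pool for 24.1%. No member had one leading transcript in all control pools and another in all PB pools. Over the 174 member transcripts tested, edgeR called none (0.0332% of all transcripts) and 8 had an unadjusted p under 0.05 (4.60% beside 3.56%). A fold of at least 2 was seen in 31 of the 174 (17.8% beside 20.1%), and in 2 of the 60 gene sums (2.45% of all genes).

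DESeq2 called 9 member transcripts of 8 genes, 7 lower and 2 higher in PB, or 4.46% of the 202 to which it gave an adjusted p, beside 1.85% of all transcripts. Of these genes, Cxxc4, Dixdc1, Hic1, Rnf146, Sox17 and Wnt2 were listed as downregulated by the study, from a DESeq2 transcript test on these same samples. The larger share and the lean to lower values are thus not independent of how the members were picked. Besides NM_172826.3 of Dact2, 7 of the 9 transcripts had 4 counts or fewer in at least 1 pool, and a Cxxc4 transcript had low counts in every PB pool. XM_006510457.3 of Dixdc1 had raw counts of 180, 458 and 399 in control and 3, 0 and 0 in PB pools. XM_006501561.2 of Cxxc4 had 88, 89 and 43 in control and 14, 8 and 10 in PB pools. In edgeR's quasi-likelihood test these 2 had FDRs of 0.588 and 0.377, and the gene sums given above did not separate the groups. An Apc transcript, XM_006525535.1, named here after its values were seen, had 6251, 3 and 6525 in control and 2, 9 and 2 in PB pools. Control 2 thus had as few counts as the PB pools, while the Apc gene sum differed by 0.00066 on the log2 scale (SE 0.05). XM_006532275.1 of Hic1 had 71, 132 and 1 in control and 1, 0 and 1 in PB pools, and NM_001284279.1 of Rnf146 had 2, 178 and 76 in control and 2, 2 and 2 in PB pools. These made up 0.408% and 0.887% of the counts of their genes. In Axin2 the transcript XM_006532060.1 had 53, 1 and 42 counts in control and 0, 1 and 1 in PB pools, with a DESeq2 adjusted p of 0.0773.

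The leading transcript of Sox17 varied between pools, also within a group. XM_006495474.2 led in control 1, NM_011441.5 in control 2, control 3 and PB 2, XM_011238364.2 in PB 1 and NM_001289464.1 in PB 3. The first had 129, 97 and 202 counts in control and 0, 0 and 0 in PB pools, at least 50.1-fold lower against a floor of 3 counts per pool, with an FDR of 0.306 in edgeR's quasi-likelihood test. XM_011238364.2 had 0, 0 and 0 in control and 310, 15 and 2 in PB pools, so that nearly all its counts came from PB 1. For Wnt2, XM_006505045.2 led in control 1 and in all PB pools and NM_023653.5 in control 2 and control 3, with 4, 93 and 129 counts in control and 0, 1 and 4 in PB pools. The lead also passed between XM_006510454.3 and NM_178118.2 for Dixdc1, between NM_145908.4 and NM_016913.4 for Porcn, and between XM_011245608.2 and XM_006520905.1 for Rspo2. For Fzd10 the assembled MSTRG.14423.1 led only in control 3 over NM_175284.3, and for Rnf146 NM_001110197.1 led only in control 3 over NM_001110196.1. In none of these 5 genes did the leading transcript divide the pools by group.

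Among the 8 transcripts with an unadjusted p under 0.05 was 1 of Wnt5a. XM_006518924.2 had 27.5, 33.5 and 33.8 CPM in control and 41.7, 40.7 and 39.0 CPM in PB pools. The pools did not overlap, and the log2 fold change of this Wnt5a transcript was 0.36 (SE 0.11, unadjusted p 0.0222) with an FDR of 1 in edgeR's quasi-likelihood test of transcripts. Pools did not overlap for 21 of the 174 member transcripts (12.1% beside 9.95%).

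**Figure D4:**
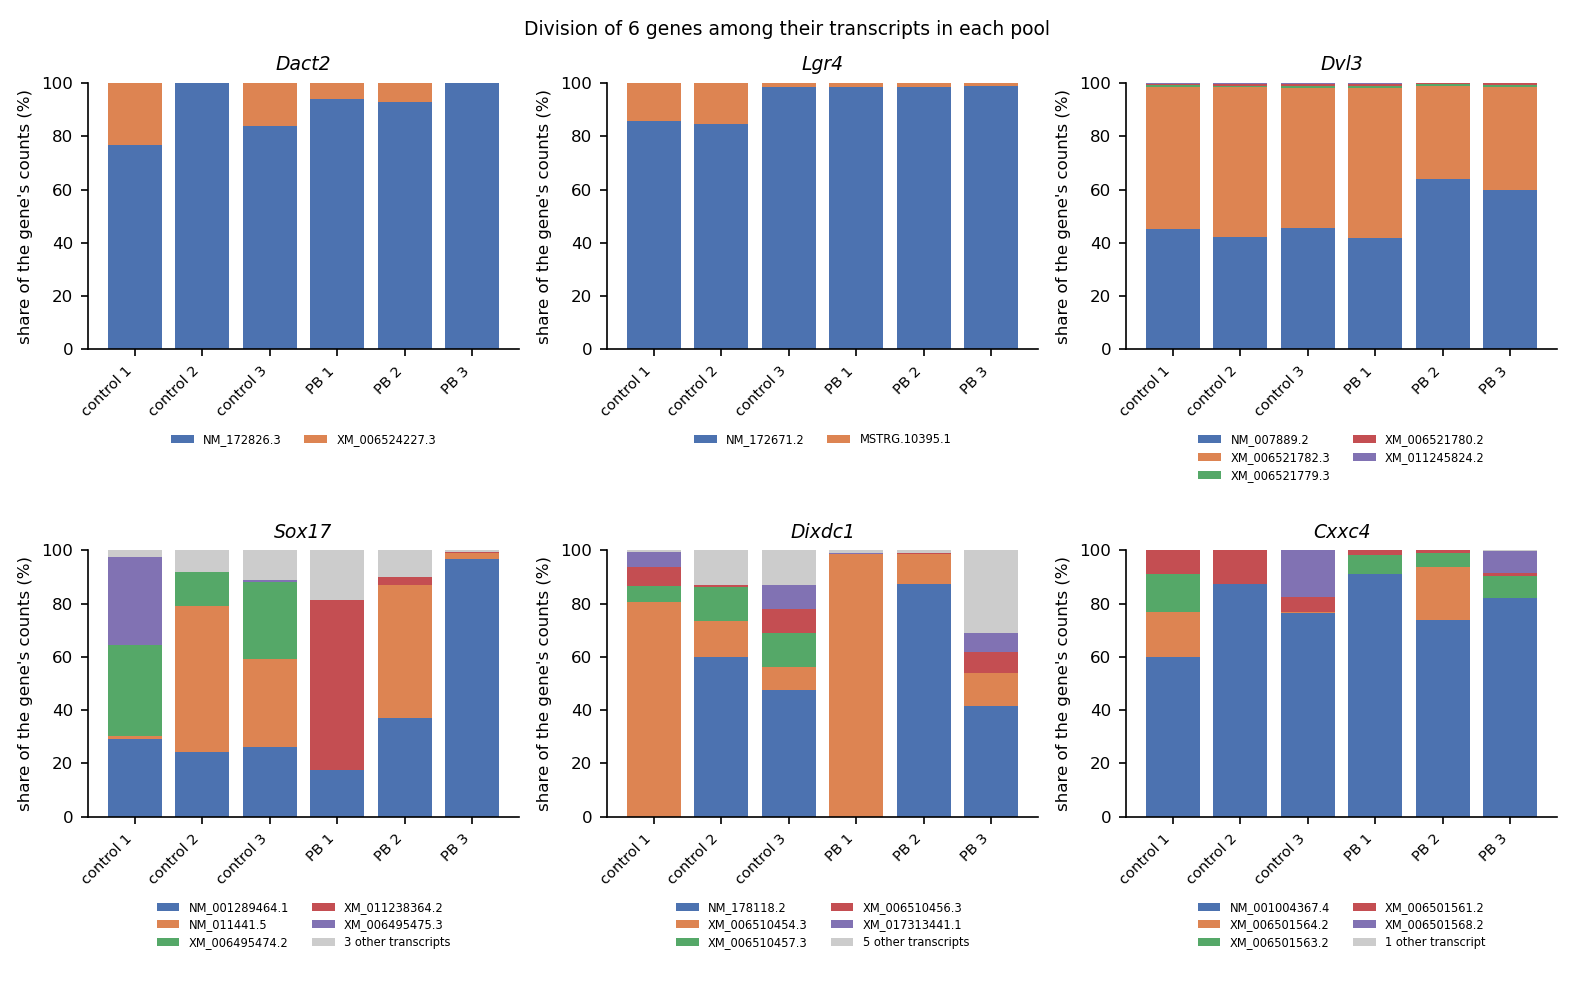
Share of each gene's counts (%) taken by its transcripts in the 6 pools, for Dact2, Lgr4, Dvl3, Sox17, Dixdc1 and Cxxc4; each colour is a transcript. NM_172826.3 takes most of Dact2 in every pool, the assembled Lgr4 transcript is sizeable only in control 1 and control 2, and the Sox17 and Dixdc1 bars differ between pools of the same group.

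Transcript usage, the division of a gene among its transcripts, could be tested for 42 members. None passed an FDR of 0.05 in edgeR (1.63% of all genes) or in limma (1.2%), and 2 had an unadjusted p under 0.05 in edgeR (4.76% beside 8.32%) and 4 in limma (beside 9.44%). In limma, Wnt9a came first with an FDR of 0.112, followed by Cxxc4 with 0.190, and Dvl3 and Dkk3 were the other two. In edgeR, Lgr4 came first, with a p of 0.00255 and an FDR of 0.110, against an FDR of 0.532 in limma. Its assembled transcript MSTRG.10395.1 had raw counts of 3874, 4499 and 378 in control and 450, 384 and 329 in PB pools. Control 1 and control 2 stood about an order of magnitude above the others, and control 3 lay within the PB range. The RefSeq transcript NM_172671.2 took the rest, between 84.8% and 98.8% of the counts. With 1 pool left out, the edgeR FDR of Lgr4 usage ran from 0.00136 (without control 3) to 0.257.

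The 2 Lgr4 transcripts (chr2:109917647-110014257, plus strand) differ at exon 2, which NM_172671.2 includes in its 18 exons and MSTRG.10395.1 lacks, and at exon 17, which the assembled form extends by 42 bases at chr2:110008666-110008707. Exon 2 lies at chr2:109970692-109970763 and is wholly coding, and its 72 bases make 24 codons, so that its omission keeps the reading frame. The joins are printed from the GENCODE M21 transcript (GRCm38), 5′ to 3′, to show what the assembled form omits; capitals mark exon 2, with 15 bases of the exons on either side.
Lgr4 with exon 2: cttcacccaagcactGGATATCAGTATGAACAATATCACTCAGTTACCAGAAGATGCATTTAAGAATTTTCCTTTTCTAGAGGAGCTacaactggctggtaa
Lgr4 without exon 2: cttcacccaagcactacaactggctggtaa

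Dvl3 (chr16:20516937-20534013) was the other member with an unadjusted p under 0.05 in edgeR's usage test, at 0.0116 with an FDR of 0.268, and had an FDR of 0.451 in limma. NM_007889.2 and XM_006521782.3 both have 15 exons and differ mainly in the last, of 1108 bases in the first and 2934 bases in the second. Of the Dvl3 counts, NM_007889.2 held 45.2%, 42.3% and 45.7% in control against 41.7%, 64.1% and 59.7% under PB. PB 2 and PB 3 stood above the control range, and PB 1 just below it. With 1 pool left out, the edgeR FDR of Dvl3 usage ran from 0.000767 (without PB 1) to 0.681.

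The identity of the tissue was checked on lists of marker genes. All 7 germ cell and 6 pregranulosa markers were present, with Foxl2, the pregranulosa transcription factor, between 135 and 166 CPM in every pool. Their summed counts overlapped between groups, from 585 to 794 CPM in control and 502 to 895 CPM in PB pools for germ cells, and from 1052 to 1137 and 1014 to 1176 CPM for pregranulosa cells. The 5 Sertoli and 5 steroidogenic (Leydig or adrenal) markers were present as well, so presence alone does not identify the tissue. Sertoli sums ran from 31.5 to 48.4 CPM in control and 29.2 to 33.9 CPM in PB pools. Steroidogenic sums ran from 56.0 to 61.9 CPM in control and 32.0 to 60.6 CPM in PB pools. None of the 55 markers in the 10 lists was called. The summed surface epithelium and mesothelium markers ran from 221 to 291 CPM in control and from 290.2 to 371 CPM in PB pools, a narrow overlap. All 5 genes of this list had values above 0, with a median log2 fold change of 0.25. Lrrn4 had the largest difference, with 0.63 on the log2 scale. The part of this tissue in the Dact2 result was not tested. Mesonephric epithelium, known to express Wnt9b, was followed by 6 markers, whose summed counts overlapped, from 152 to 165 CPM in control and 143 to 163 CPM in PB pools. The sum was mostly Emx2, with 128 CPM in control 3, the lowest of its control pools. Pax8 was highest in PB 2, at 14.5 CPM against 12.6 CPM in control 3. Pax2, Lhx1 and Gata3 were highest in control 3, at 2.50, 1.34 and 6.21 CPM. Cdh16, singled out after its values were seen, was at 2.72, 3.34 and 14.8 CPM in control and 2.93, 3.87 and 1.90 CPM in PB pools. Control 3 was highest for Cdh16, Pax2, Lhx1 and Gata3, as it was for Wnt9b, Wnt7b, Wnt3 and Wnt2. The part of such tissue in those values was not tested.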

How the data were processed

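RNA from whole E15.5 ovaries was analysed as 3 control and 3 PB pools, grouped by the sample titles. According to the labels and methods the authors prepared stranded polyA libraries, aligned paired reads to mm10 with HISAT2 2.1.0, assembled transcripts with StringTie 1.3.5 and deposited whole-number raw counts per transcript. StringTie divides reads of shared exons among transcripts by estimation, so transcript counts are less certain than gene sums. Only gene names and class codes were taken from the authors' DESeq2 1.30.0 table; its fold changes, p-values and 6 per-sample normalised columns were not used. The members and lists were chosen with earlier results of these data known, and named genes followed a rule on role, level and p.

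Counts were summed by gene name; transcripts with no name (1493, between 3.05% and 4.49% of counts) were left out of sums. Tests used edgeR 4.0.16 (TMM, filterByExpr at 10 counts per pool and 15 in total, quasi-likelihood F-test, Benjamini-Hochberg FDR over all genes or transcripts), calling genes at 2-fold or more and an FDR no higher than 0.05. SE is the log2 fold change divided by the root of F, and 95% intervals use the fit's degrees of freedom. Transcript usage was tested with diffSpliceDGE and with limma 3.58.1. TPM came from counts and exon lengths of the deposited annotation, and compares genes, not groups. The fits were tested on simulated data. Alternatives were DESeq2 1.42.0, other scalings and filters, known transcripts alone, assembled loci, a replicate block, each pool left out and other thresholds; robust empirical Bayes was added after the data were seen. Between 97165644 and 125985399 counts per pool put 3 counts at 0.0257 to 0.0319 CPM.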

Additional observations from a re-analysis of the deposited data

How the results depend on the processing

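Dact2 decided the count of called member genes: 0 in edgeR, but 1 with DESeq2, 1 with no filter on low counts (FDR 0.0441), 1 with robust empirical Bayes (FDR 0.0407, chosen after the data were seen), 1 at an FDR of 0.1, and 0 to 1 with 1 pool left out (1 without PB replicate 2). Its log2 fold change stayed between 1.49 and 1.70 throughout. Called member transcripts numbered 9 with DESeq2, 1 with a stricter filter and 1 at an FDR of 0.1, both times NM_172826.3, and usage calls numbered 1 (Sox17) with a stricter filter and 0 to 3 with 1 pool left out: 3 without control replicate 2 (Wnt9a, Axin2, Apc), 2 without control replicate 3 (Lgr4, Hic1) and 1 without PB replicate 1 (Dvl3). In the main edgeR fit usage was called in 1.63% of all genes. That share is not given for the stricter filter or with 1 pool left out, so these usage calls have no matching background. The share of all transcripts called is likewise not given for the stricter filter or an FDR of 0.1. The other pathway genes and the targets had 0 calls under every alternative. Over all genes edgeR called 3, DESeq2 11, known transcripts alone 8, the replicate block 0, and fits without 1 pool 3 to 9. Over all transcripts edgeR called 17 and DESeq2 1172. The causes were not tested.

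Of 29 named genes, 10 changed sign somewhere, all of them uncalled: with known transcripts only, Wnt2b became -0.0072, Fzd10 0.11 and Lgr4 0.11. With 1 pool left out, Wnt9b ran from -1.33 to 0.43, Rspo1 from -0.018 to 0.085, Lgr4 from -0.074 to 0.031, Dkk1 from -0.23 to 0.22, Dixdc1 from -0.052 to 0.066, Axin2 from -0.062 to 0.020, Cxxc4 from -0.20 to 0.17 and Hic1 from -0.090 to 0.031.

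The samples share replicate numbers, and deviations of same-numbered pools correlated at 0.093, 0.15 and -0.018. Control 2 with PB 2 (0.15) was the highest of all pairs, while control 1 correlated with PB 3 (0.096) about as much as with PB 1. Correlations this weak cannot decide whether same-numbered pools shared more than a number. With the replicate block, the member calls stayed at 0, Dact2 had an FDR of 0.545, Dkk1 became -0.014 and Cxxc4 0.0056. With 3 pools per group, scarce members such as Wnt3, Wnt9b and Sfrp4 could not be bounded within 2-fold.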

Other observations

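Transcripts on the opposite strand overlapped 17 members. Most held few counts beside the member, but Fbxl14, which lies across Wnt5b, held 175% of the Wnt5b count in control 1 and 229% in PB 3. Echdc1 held 84.1% and 86.8% of the Rnf146 count in the same pools, 5930412G12Rik held 12.7% to 18.3% of the Fzd10 count over the 6 pools, and 9130221H12Rik held 9.15% of the Gsk3a count in control 1. The libraries keep strand, but whether the counting used it is not given in the sources used here, so whether reads were shared was not tested. The Ctnnb1 sum includes an assembled transcript on the opposite strand, with 13 to 49 counts per pool.

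In the marker lists, 5 of the 55 genes had an unadjusted p under 0.05, beside 4.46% of all genes, and none of them was called. Dppa3 and Pou5f1, genes of early germ cells, gave log2 fold changes of -0.52 (SE 0.21) and -0.58 (SE 0.20). The groups overlapped for both, since control 2, at 11.9 and 18.3 CPM, was as low as the PB pools. Of the other germ cell markers, Sycp3 and Mael gave 0.34 and 0.25. Ddx4, Dazl and Stra8 gave -0.04, -0.0031 and -0.08, and the median of the list was -0.04. Lrrn4 gave 0.63 (SE 0.13), Dmrt1 -0.52 (SE 0.20) and Hba-a2 -0.77 (SE 0.28). The pools overlapped for Dmrt1, where control 2 lay within the PB range, and not for Lrrn4 and Hba-a2.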
